A study of Neurospora crassa with 2 samples.

Results

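The genes described here are those named for proteins of the cytosolic ribosome in Neurospora crassa, a filamentous ascomycete fungus. They were chosen by product name from a deposited table of 9454 genes: 83 names contained 40S or 60S ribosomal protein, cytoplasmic ribosomal protein or acidic ribosomal protein, and 3 of these were left out because they were called mitochondrial. Of the remaining 80 genes, 28 are named for the 40S subunit and 48 for the 60S subunit outside its acidic stalk. The 3 stalk genes also have 60S in their names but are counted apart from the other 60S genes here. The name of 1 gene, crp-10, gives no subunit. RNA sequencing compared a wild-type strain with a upf1 knockout strain, both without treatment. Hyphae of both were kept on minimal slants for 2 weeks and then grown for 2 days in constant light with 2% glucose, and 3 flasks grown apart gave the polyadenylated RNA that was pooled into 1 library per strain. How the knockout was made, and whether the strain is a single clone, is not stated in the sources used here.

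The cytosolic ribosome is built from a small 40S subunit, which reads the mRNA, and a large 60S subunit, which forms peptide bonds and holds the exit tunnel of the new protein. Each subunit is a body of ribosomal RNA covered by many different proteins, most of them present once per ribosome, and their genes are among the most strongly transcribed of a growing cell. Mitochondria have their own ribosomes of bacterial type, whose proteins are largely encoded in the nucleus. UPF1 is an RNA helicase needed for nonsense-mediated mRNA decay, the pathway that destroys mRNAs on which translation stops too early.

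The knockout library held 56306422 reads over the genes of the table and the wild-type library 28189643. The targeted gene NCU04242 (upf1, symbol prd-6) stood at 2.78 RPKM in knockout RNA and 22.6 in wild-type RNA, where RPKM is the read number divided by gene model length in kilobases and by the library total. Among 6 fixed markers of conidiation, which marks spore-forming cells, 4 were at least 2-fold higher and 2 at least 2-fold lower in the knockout library. Their summed level was 2529 RPKM against 16070 in the wild type, nearly all of the latter from eas, and none was at 0. Of 6 sexual development markers found, 3 were at 0 in both libraries, namely the mating-type genes matA-1, matA-2 and matA-3. Sexual markers summed to 81.9 RPKM against 24.0, mostly from asd-1 (74.2 against 16.1 RPKM). Hyphal markers summed to 1587 RPKM against 3100. Of these only hex-1, at 602 against 1908 RPKM, was at least 2-fold lower, and none was at least 2-fold higher. The 5 hyphal markers were present in both libraries, at 28.8 to 653 RPKM in the knockout and 40.3 to 1908 RPKM in the wild type. The part of these cell types in the results below was not tested. In RNA from whole cultures, fewer cells of a type and less RNA per cell cannot be told apart.

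Because each strain gave 1 pooled library, differences have no replicate check and no p-value was calculated. Differences are given as log2((knockout RPKM + 1)/(wild-type RPKM + 1)). Folds printed beside them compare reads over library totals, with exact 95% intervals (Clopper-Pearson) for counting error alone. The intervals take each read as separate. Without molecular identifiers reads cannot be counted as separate molecules, so the intervals may be too narrow. All 80 ribosomal protein genes passed the filter of 5 RPKM in at least 1 library, as did 7367 genes in all. Their smallest read counts were 2914 (knockout) and 1183 (wild type) and their medians 51250 and 36000, so counting error is small beside the differences described. Without rescaling, intervals excluded a ratio of 1 for 79 of the 80, the exception being L33.

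Ribosomal protein mRNAs took a smaller share of the knockout library. The 80 genes held 8.14% of table reads in the knockout (8.13 to 8.15) and 11.3% in the wild type (11.27 to 11.29), a share 1.39-fold larger in the wild type. The most read gene of the knockout library, the thiamine synthesis gene NCU09345, took 6.87% of its reads against 2.998% in the wild type. Without it the shares were 8.74% and 11.6%.

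Gene by gene, 65 of the 80 had a log2 ratio below 0, against 40.6% of all eligible genes, and the median was -0.46 against 0.15. The members had quartiles of -0.69 and -0.12, and all eligible genes -0.28 and 0.69. With TMM scaling, which moved the median of all eligible genes by -0.17, 66 members were below 0, beside 51.1% of all eligible genes. The differences were modest. In all, 6 members were at least 2-fold lower (5.52% of all eligible genes were) and 1 at least 2-fold higher (16.5%). With TMM scaling 12 members were at least 2-fold lower, beside 7.79% of all eligible genes, and 0 higher, beside 12.9%. After subtraction of the median of all eligible genes the counts were 10 lower (7.43%) and 1 higher (13.3%). After subtraction of the median of genes of similar length they were 29 lower (8.2%) and 0 higher (11.6%). At 1.5-fold the counts were 32 lower, beside 12.7% of all eligible genes, and 9 higher, beside 28.8%. Strongly expressed genes as a class also leaned to the lower side. Of 241 other genes with a mean of at least 300 RPKM over both libraries, a limit chosen after the values were seen, 58.1% were below 0 and their median was -0.13, with wider quartiles of -0.64 and 0.41.

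**Figure D1:**
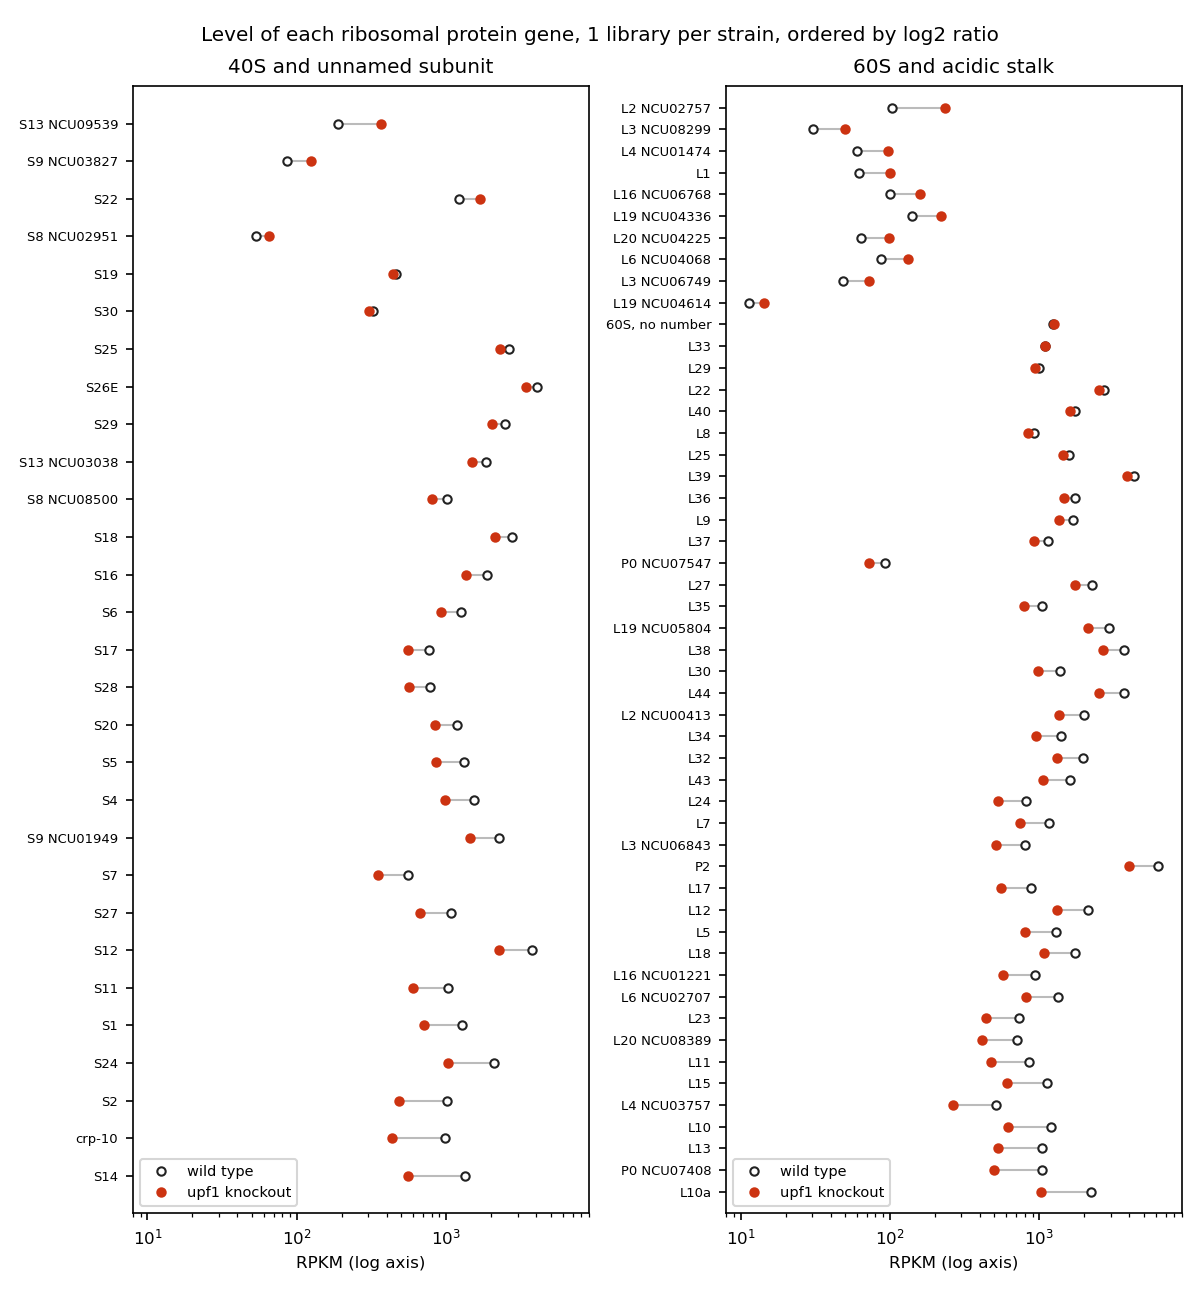
Level of each of the 80 genes in RPKM (log axis) in the wild-type library (open circles) and the upf1 knockout library (filled circles), with the 40S genes and crp-10 on the left, the 60S and stalk genes on the right, and the highest log2 ratios at the top. The abundant genes lie above 300 RPKM in the wild type and mostly shift to the left in the knockout, while a group of weakly expressed genes mostly shifts to the right.

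The subunits had like medians. Their counts stand beside 40.6% of all eligible genes below 0, 5.52% at least 2-fold lower and 16.5% at least 2-fold higher. The 28 genes named for the 40S subunit had a median log2 ratio of -0.46, with 24 below 0, 3 at least 2-fold lower and none at least 2-fold higher. For the 48 genes of the 60S subunit outside the stalk the median was also -0.46, with 37 below 0, 1 at least 2-fold lower and 1 at least 2-fold higher. The 3 stalk genes, also of the 60S subunit, are left out of this comparison. They were all below 0 and 1 was at least 2-fold lower. Among genes whose name is borne once, the medians were -0.49 for 22 genes of the small subunit and -0.52 for 32 genes of the large subunit, with quartiles of -0.71 and -0.32 for the former and -0.68 and -0.14 for the latter. The distance between the subunits was thus small beside the spread within each. As shares of table reads, the 40S genes went from 4.03% in the wild type to 2.92% in the knockout and the 60S genes from 6.34% to 4.69%. The 3 stalk genes went from 0.756% to 0.460%.

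In the small subunit, crp-2 (NCU07830), which encodes S14 of the platform where mRNA leaves the ribosome, had the lowest ratio of all 80 genes. It stood at 556 RPKM in knockout RNA and 1340 in wild-type RNA, 2.41-fold lower (2.37 to 2.45), and lies on supercontig 3 (plus strand, 1000739 to 1001920). Coordinates are as deposited, and no source used here names their genome build. The gene of S2 (NCU06047), a protein near the mRNA entry channel, stood at 480 RPKM in knockout RNA and 1015 in wild-type RNA, 2.11-fold lower (2.08 to 2.14). That of S24 (NCU07182) stood at 1032 against 2077 RPKM, 2.01-fold lower (1.99 to 2.04). These were the small-subunit genes past 2-fold on the lower side.

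Other genes of the 40S subunit differed less or hardly at all. S26 (NCU04552, crp-5), which lines the mRNA exit, was the most abundant of them at 3401 RPKM in knockout RNA and 4035 in wild-type RNA, 1.19-fold lower (1.18 to 1.20). S12 (NCU06432), a protein of the beak of the head, stood at 2270 and 3744 RPKM, 1.65-fold lower (1.64 to 1.66). These abundant transcripts of like level thus differed in the size of their shift.

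S18 (NCU00475), a protein of the head near the bound tRNA, had 2105 RPKM in knockout RNA and 2737 in wild-type RNA. S25 (NCU09476) had 2304 and 2621 RPKM. Both lay within 1.5-fold of the wild-type level. The genes of S7 (NCU00258, crp-15) and S17 (NCU07014, crp-3) were 1.60-fold (1.56 to 1.63) and 1.38-fold lower (1.36 to 1.40). The other 12 genes of this subunit were all below 0, from S1 (NCU01452) with 711 and 1275 RPKM and a log2 ratio of -0.84 to S19 (NCU07826) with 439 and 464 RPKM and -0.08. Among them S6 (NCU08502), the substrate of S6 kinase in animals and yeast, had 916 against 1257 RPKM.

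The gene of S22 (NCU06431) was the one abundant gene of either subunit clearly on the higher side, and was singled out after its value was seen. It stood at 1692 RPKM in knockout RNA and 1221 in wild-type RNA, 1.39-fold higher (1.37 to 1.41), a log2 ratio of 0.47. When the median of genes of similar length was subtracted, its ratio became -0.09.

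In the large subunit, the gene of L10a (NCU00294) had the lowest ratio. L10a forms the mobile stalk beside the site where tRNA leaves. The gene stood at 1019 RPKM in knockout RNA and 2215 in wild-type RNA, 2.17-fold lower (2.15 to 2.20), on supercontig 3 (minus strand, 3343125 to 3344410). crp-10 (NCU00489), whose product name gives no subunit, was 2.27-fold lower (2.24 to 2.30), at 431 RPKM against 977.

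L10 (NCU08964), which joins the large subunit late in its assembly, stood at 618 and 1201 RPKM, 1.94-fold lower (1.92 to 1.97). The gene of L13 (NCU05554, un-25) stood at 526 against 1041 RPKM and that of L15 (NCU01776) at 603 against 1130 RPKM, with log2 ratios of -0.98 and -0.90. L4-A (NCU03757) had a log2 ratio of -0.95. L4 is one of the proteins that reach into the exit tunnel of the nascent peptide. L5 (NCU04331, crp-4), which carries the 5S ribosomal RNA together with L11, was 1.62-fold lower (1.60 to 1.64), and L11 (NCU02509) 1.78-fold lower (1.75 to 1.81).

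Of the 10 genes most abundant in the wild type, the first was P2 of the acidic stalk, described below. Another 5 belong to the large subunit outside the stalk, namely L39, L38, L44, L22 and L19. These 5 were between 1.08-fold and 1.46-fold lower. L39 (NCU08990), a very small protein of the tunnel wall, stood at 3879 RPKM in knockout RNA and 4288 in wild-type RNA, 1.11-fold lower (1.10 to 1.11). L38 (NCU03635) and L44 (NCU00706) had 2676 and 2505 RPKM in the knockout against 3683 and 3659 in the wild type. L22 (NCU06661) had 2521 against 2722 RPKM. L40 (NCU05032), which in budding yeast is made as a fusion with ubiquitin, had 1592 against 1736 RPKM. For L33 (NCU09109) the libraries gave 1084 and 1096 RPKM, a ratio whose interval of 0.974 to 1.003 included 1. NCU08344, named as a 60S protein without a number, had a log2 ratio of 0.03 that turned negative with every scaling tried. The 18 genes of the large subunit not named elsewhere here were all below 0, from L23 (NCU02905) with 441 and 728 RPKM and a log2 ratio of -0.72 to L29 (NCU00315) with 932 and 991 RPKM and -0.09. Among these, L12 (NCU01317) at the base of the stalk had 1316 against 2101 RPKM, and L25 (NCU06226) beside the mouth of the exit tunnel 1432 against 1572 RPKM. The genes L33, NCU08344, L11, L12, L25, S6 and those at either end of these ranges were chosen after their values were seen.

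The acidic stalk recruits the GTP-binding translation factors to the large subunit. P2 (NCU00979), its flexible acidic arm, was the most abundant of the 80 genes in both libraries, at 3980 RPKM in knockout RNA and 6259 in wild-type RNA, 1.57-fold lower (1.56 to 1.58). P0, which anchors the arms to the ribosome, is named for 2 genes. NCU07408 (po, also crp-69) stood at 500 RPKM in knockout RNA and 1045 in wild-type RNA, 2.09-fold lower (2.07 to 2.12). NCU07547 stood at 71.9 and 92.8 RPKM, 1.29-fold lower (1.24 to 1.35). No gene of the table matched by the naming rule was called P1.

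Genes that share a protein name were compared within the 80. There, 11 names were shared, 9 by 2 genes and 2 by 3 genes, which makes 24 genes. Within each name the same gene was the most abundant in both libraries, by 8.59-fold to 257-fold in the wild type and by 2.73-fold to 148-fold in the knockout. The 11 most abundant genes all had a log2 ratio below 0, with a median of -0.64 and a range of -1.06 to -0.30. Of the 13 others, 12 were above 0, beside 59.4% of all eligible genes, with a median of 0.62 and quartiles of 0.52 and 0.69. The exception was the P0 gene NCU07547. In each of the 13 pairings of a most abundant gene with another of its name, the other had the higher log2 ratio, by 0.62 to 1.73.

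**Figure D2:**
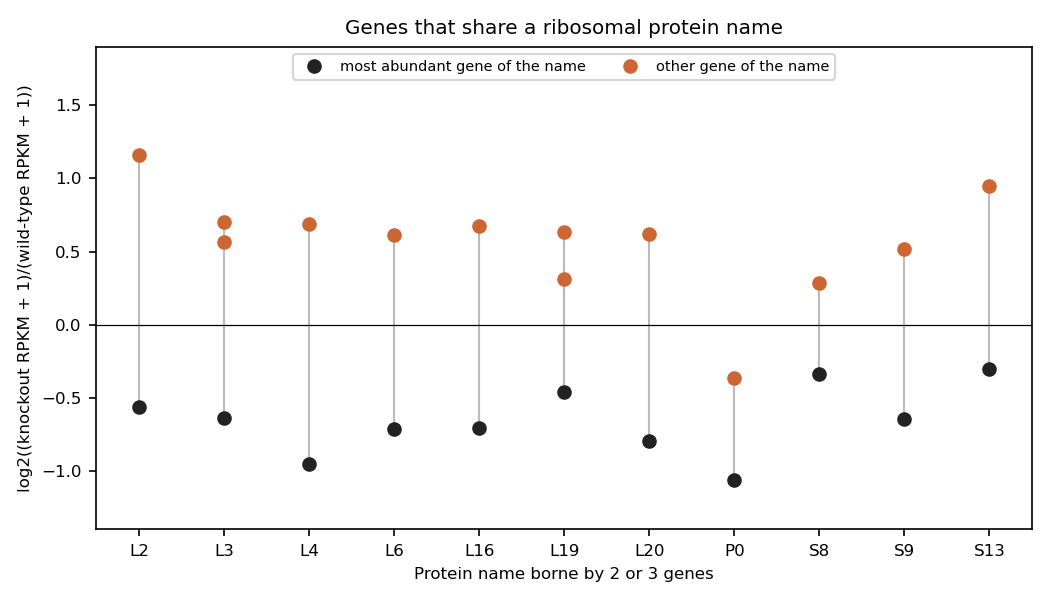
Log2 ratio of the genes behind each of the 11 shared names, with the most abundant gene of each name in black and the others in orange. The black points run from -1.06 to -0.30, and each orange point lies above the black point of its name, with P0 the one name whose points are both below 0.

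L2 gave the widest split. L2 lies beside the peptidyl transferase centre, where peptide bonds form. Its abundant gene NCU00413 stood at 1347 RPKM in knockout RNA and 1997 in wild-type RNA, 1.48-fold lower (1.469 to 1.496). The other gene of that name, NCU02757, stood at 232 and 103 RPKM, 2.25-fold higher (2.18 to 2.32), and was the 1 member at least 2-fold higher, with a log2 ratio of 1.16 that became 0.98 with TMM scaling. It lies on supercontig 1 (minus strand, 3455917 to 3457705), while NCU00413 lies on supercontig 3 (plus strand, 3769771 to 3771556).

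S13 came next among the genes on the higher side: NCU09539 stood at 365 RPKM in knockout RNA and 189 in wild-type RNA, 1.94-fold higher (1.87 to 2.00), whereas the abundant gene NCU03038 had 1489 and 1838 RPKM. For S9, a protein of the mRNA entry channel, the abundant gene un-16 (NCU01949, also crp-17) was 1.56-fold lower (1.55 to 1.58) at 1448 against 2263 RPKM. NCU03827, of the same name, was 1.44-fold higher (1.39 to 1.49) at 124 against 86.3 RPKM. S8 split least among the small-subunit names. NCU08500 had 806 and 1019 RPKM, and NCU02951 had 65.4 and 53.6 RPKM, with a log2 ratio of 0.28 that became -0.28 after subtraction of the median for its length.

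L3, which also reaches the peptidyl transferase centre, is named for 3 genes. NCU06843 stood at 511 and 798 RPKM, 1.56-fold lower (1.54 to 1.58). NCU06749 (72.6 and 48.9 RPKM) and NCU08299 (50.3 and 30.6 RPKM) were 1.49-fold (1.42 to 1.56) and 1.64-fold higher (1.56 to 1.73). L19 showed the same order among its 3 genes. NCU05804, at 2127 and 2925 RPKM, was lower, while NCU04336, at 219 and 141 RPKM, was 1.56-fold higher (1.51 to 1.61). NCU04614, at 14.4 and 11.4 RPKM the weakest of the 80 genes, was 1.27-fold higher (1.19 to 1.35), and its gene model of 3826 bp was more than 3 times the 1203 bp of NCU05804.

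L4, L6, L16 and L20 each had 1 gene on each side. For L4 the abundant gene was NCU03757 (L4-A) with 266 and 516 RPKM, and NCU01474 had 97.35 and 60.03 RPKM. For L6 they were NCU02707 with 812 and 1332 RPKM and NCU04068 with 133 and 86.7 RPKM. For L16 they were NCU01221 with 571 and 933 RPKM and NCU06768 with 160 and 99.8 RPKM. For L20 they were NCU08389 with 410 and 713 RPKM and NCU04225 with 99.1 and 64.2 RPKM. In every pair the order of abundance was the same in both libraries, but the 2 genes of a name lay closer together in the knockout.

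The 56 genes whose name no other of the 80 bears had a median of -0.53, with 53 below 0, beside 40.6% of all eligible genes. The exceptions were S22, NCU08344 and L1 (NCU08893), which stood at 101 and 62.2 RPKM and was 1.62-fold higher (1.54 to 1.70). Levels in the wild type left a gap. There, 14 members, the 13 less abundant genes of shared names and L1, had at most 189 RPKM. The other 66 had at least 325.56 RPKM. Of the 66 abundant genes 64 had a log2 ratio below 0, beside 40.6% of all eligible genes, with a median of -0.57. Of the 14 weaker ones 13 were above 0, beside 59.4% of all eligible genes, with a median of 0.63. These groups were formed after the values were seen. Their gene structures also differed: the median share of the genomic span outside the gene model, a measure of introns, was 27.8% for the 66 abundant genes, 5.35% for the 14 others and 6.37% for all eligible genes.

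**Figure D3:**
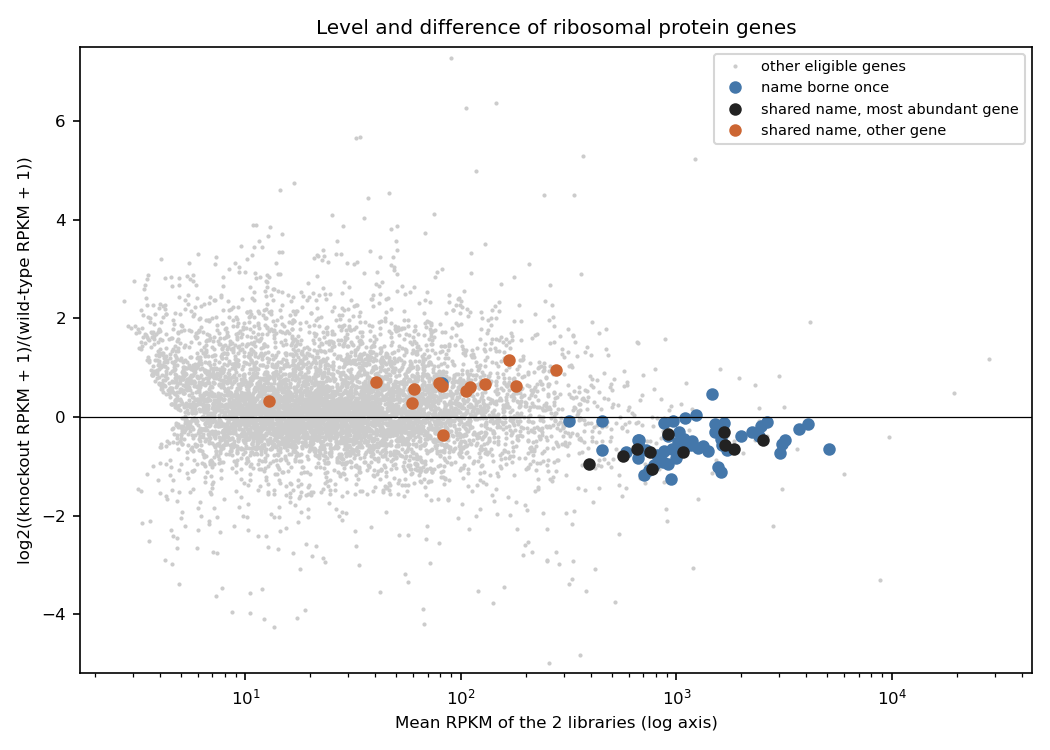
Log2 ratio against mean RPKM of both libraries (log axis) for the ribosomal protein genes, coloured by whether their name is borne once or shared, over all other eligible genes in grey. The abundant ribosomal protein genes form a band mostly between -1.27 and 0, and the less abundant genes of shared names lie mostly above 0 within the grey cloud.

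A product name alone does not place a protein in the cytosol, and the table holds nothing else on it. The levels and ratios of the 14 weaker genes were set beside those of ribosomal proteins outside the naming rule. Of all eligible genes 59.4% were above 0 and 16.5% at least 2-fold higher. The 17 genes with bacterial-type names (30S, 37S, 50S or 54S, a list made after the results were seen) were all above 0, with a median of 0.60 and wild-type levels of 10.1 to 194 RPKM. Of 16 eligible genes called mitochondrial ribosomal proteins 13 were above 0, with a median of 0.73 and wild-type levels of 16.1 to 171 RPKM. The 4 at least 2-fold higher were NCU06450 (157 against 66.9 RPKM), L43 (NCU07549), L31 (NCU00211) and S18 (NCU03230). The less abundant genes of shared names spanned 11.4 to 189 RPKM in the wild type. Once the median of genes of similar length was subtracted, all 3 medians were smaller. They became 0.32 for the bacterial-type names, 0.24 for the mitochondrial names and 0.34 for the less abundant genes of shared names. On that scale 1, 5 and 2 of these genes were below 0, beside 50% of all eligible genes.

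A further 12 genes carry plain ribosomal protein names without 40S or 60S and so lay outside the rule; their list too was made after the results were seen. They were grouped by level after the values were seen as well. The 8 with at least 759.7 RPKM in the wild type were all below 0, beside 40.6% of all eligible genes. Among these 8, L27a.e (NCU03806) was 1.83-fold lower (1.81 to 1.86) and CRP7 (NCU08627) 1.57-fold lower (1.55 to 1.59). The S27a fusion with ubiquitin (NCU04553) was 1.13-fold lower (1.12 to 1.14). The 4 with at most 123 RPKM, named L13 (NCU07852), S15 (NCU03394), S16 (NCU08071) and L36 (NCU06038), were all above 0, beside 59.4% of all eligible genes. Among the 12, 5 bear a name that 1 of the 80 genes also bears. L13, S16 and L36 were above 0 where the more abundant members of those names (NCU05554, NCU08620 and NCU03302) were below it. S12 and S28 were not of that kind, since both genes of each name were abundant and below 0. S12 (NCU00971) had 2492 against 3687 RPKM, beside 2270 and 3744 for the member NCU06432. S28 (NCU01552) had 2273 against 2975 RPKM, beside 560 and 778 for the member NCU05599. Without these 5 names, 48 of 51 genes with a name of their own were below 0, beside 40.6% of all eligible genes. Their median was -0.55. L36 (NCU06038) stood at 241 RPKM in knockout RNA and 123 in wild-type RNA, 1.96-fold higher (1.89 to 2.03).

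Gene model length moved with the ratio across the table. The median log2 ratio of all eligible genes went from 0.56 in the shortest of 8 length bins, up to 936 bp, to -0.10 in the longest. Among the 66 abundant ribosomal protein genes the 22 shortest (631 to 890 bp) had a median of -0.38, the middle 22 (905 to 1135 bp) -0.62 and the 22 longest (1142 to 1661 bp) -0.64. Once the median of genes of similar length was subtracted, these became -0.94, -0.96 and -0.98. On that scale 68 of the 80 members were below 0, beside 50% of all eligible genes, and the median was -0.86. Spearman's rho between length and log2 ratio over the 66 genes was -0.34, and -0.05 after that subtraction, as a description of genes that share both libraries.

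**Figure D4:**
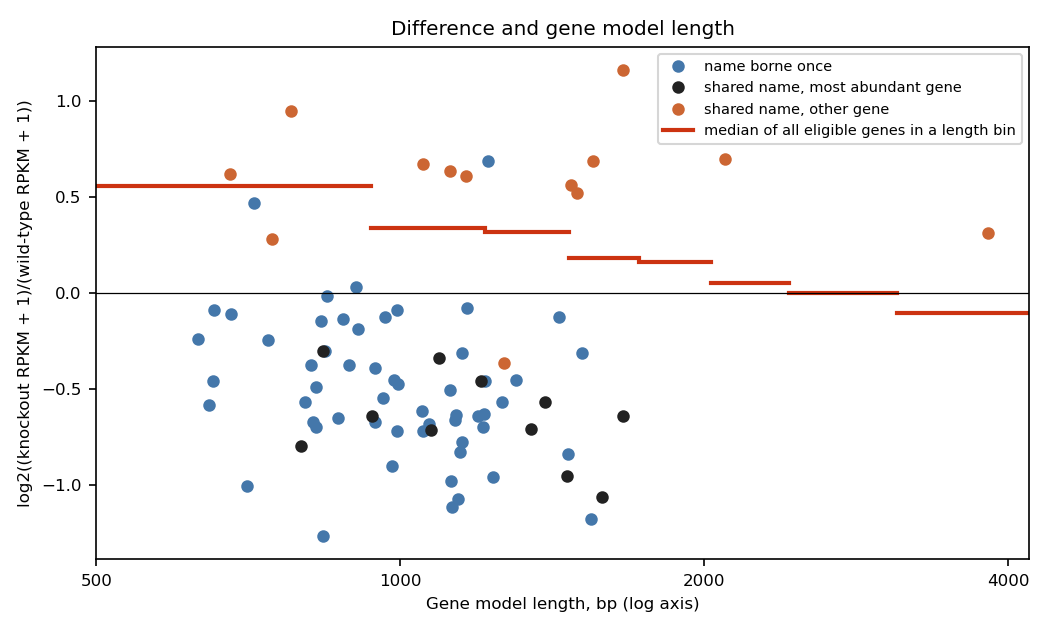
Log2 ratio against gene model length in bp (log axis) for the 80 genes, with red lines for the median of all eligible genes in each of 8 length bins. Most ribosomal protein genes lie below the red line of their length, the abundant genes far below it, and most of the less abundant genes of shared names lie above it.

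Translation factors and the machinery that makes ribosomes were read beside the ribosomal proteins. For the lists below, the shares of all eligible genes were 40.6% below 0, 5.52% at least 2-fold lower and 16.5% at least 2-fold higher. Of 8 genes named as elongation factors 7 were below 0, 1 at least 2-fold lower and 1 at least 2-fold higher, with a median of -0.49. The gene of elongation factor 1 alpha (NCU02003), which brings aminoacyl-tRNA to the ribosome, stood at 3705 RPKM in knockout RNA and 8223 in wild-type RNA, 2.22-fold lower (2.21 to 2.23). Elongation factor 2 (NCU07700), which drives translocation, was 1.94-fold lower (1.92 to 1.95), and elongation factor 3 (NCU07922), a translation factor of fungi, 1.42-fold lower (1.40 to 1.43). The one on the higher side, NCU02955 at 94.3 against 41.4 RPKM, is named elongation factor G 1, after the bacterial form of the translocation factor.

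Initiation factors were mixed. Of 17 genes 12 were below 0 and none was at least 2-fold lower, with a median of -0.20. The 17 include NCU06103, named mitochondrial translation initiation factor, with a log2 ratio of 0.62. They also include NCU11234, named translation initiation protein Sua5, with -0.38. The 5 genes named initiation factor 3, whose complex binds the 40S subunit, had log2 ratios of -0.89 to -0.29. Initiation factor 5 (NCU00366) stood at 487 against 140 RPKM, 3.47-fold higher (3.40 to 3.55), and was the 1 factor at least 2-fold higher on the log2(RPKM + 1) scale. By reads alone the weakly expressed eIF-2B gene (NCU11341), at 11.1 against 5.51 RPKM, was also 2.01-fold higher (1.79 to 2.28), with a log2 ratio of 0.89.

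Genes of ribosome production had a median near 0. The 44 genes of ribosome biogenesis and rRNA processing had a median of 0.10. Of them 16, or 36.4%, were below 0, near the 40.6% of all eligible genes. None of the 44 was at least 2-fold lower and 1 was at least 2-fold higher. This was the rRNA-processing gene FCF2 (NCU00115), at 260 against 79.9 RPKM. A second gene named FCF2 (NCU00116, aab-1) was on the lower side, at 52.7 against 70.3 RPKM. The median of the list was -0.079 with TMM scaling and -0.0051 after subtraction of the median for length, so it has no firm sign. Of 3 RNA polymerase I genes, RPA1 (NCU01638, 24.5 and 24.9 RPKM) and RPA2 (NCU08616, 12.6 and 13.8 RPKM) were close to the wild-type level, while NCU05251, which overlaps a neighbouring gene, stood at 101 against 38.7 RPKM. The search for chaperones of the nascent chain met zuotin (NCU03009), a DnaJ-type chaperone bound to the ribosome in budding yeast, at 89.5 against 130 RPKM. Its other 6 matches, among them dynactin subunits, shared letters with the search term and are no such chaperones. The search for ribosome-modifying and stress proteins met no gene.

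**Figure D5:**
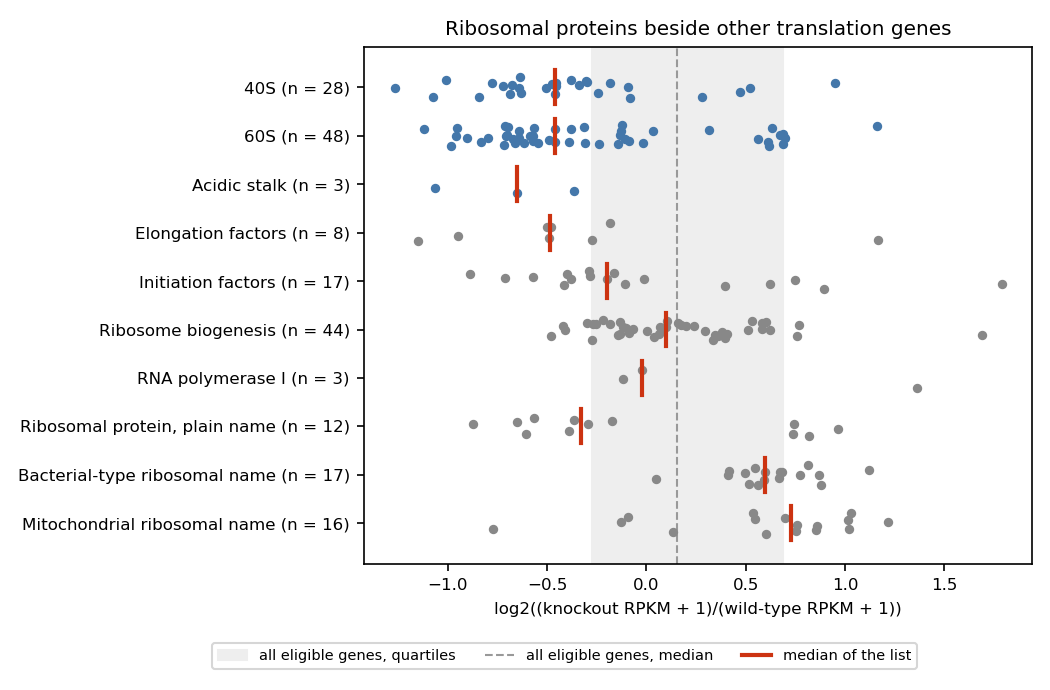
Log2 ratio of each gene (points) and median (red bars) for the 40S, 60S and acidic stalk genes and for lists of other translation and ribosome genes, with the range between the quartiles of all eligible genes shaded and their median dashed. The medians of the 40S genes, the 60S genes and the elongation factors lie between -0.49 and -0.46, that of ribosome biogenesis at 0.10, and those of bacterial-type and mitochondrial ribosomal names at 0.60 and 0.73.

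15 of the 80 gene models overlap another gene model of the table, those of P0 (NCU07408), S12, S13 (NCU03038), S17, S18, L1, L6 (NCU04068), L7 (NCU07829), L25, L38 and NCU08344 among the genes described, and no source used here says if strand was used in counting. Genes of one name are uncertain wherever reads fit more than 1 of them.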

How the data were processed

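The authors deposited, per the file headers, raw read counts per gene and RPKM for each library. The submitters' processing notes name Bowtie 0.12.2. No source used here states the build, the annotation, how reads were counted or what was done with reads that fit several genes. Library totals behind the authors' RPKM were recovered from genes whose model fills their genomic span (59645570 and 29546475 reads, of which 94.4% and 95.4% are in the table), and model lengths from reads and RPKM. Columns were assigned by the initials of the sample titles.

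Differences are on the log2(RPKM + 1) scale, knockout minus wild type, without rescaling. Genes needed 5 RPKM or more in either library. Names were matched after dropping "variant", "acidic" and a copy letter after a hyphen. Symbols came from a RefSeq table of assembly NC12, which held all 80 genes, 9 with a symbol. edgeR 4.0.16 gave TMM factors, and Python 3.11.15 with scipy 1.17.1 the rest. The calculations were tested on simulated data. With 1 library per strain no test was made. The genes and lists were chosen with earlier results of these data known. Named genes are the 10 highest and 10 lowest ratios, the 10 most abundant, stalk, shared-name and crp genes, ubiquitin fusions (L40, as known from budding yeast) and upf1, and others where stated. Genes of related lists were named after their values were seen. Sequences were not analysed here.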

Additional observations from a re-analysis of the deposited data

How the results depend on the processing

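Alternatives were pseudocounts of 0.1 and 5, the filter removed or raised to 20 RPKM, subtraction of the median gene, TMM scaling, centring within 8 length bins, ratios of reads over library totals, and leaving out overlapping models. TMM scaling moved the median of all eligible genes by -0.17. A median was counted as moved when it left the 95% binomial interval of the median across genes. That interval takes the genes of 2 single libraries as its units and is wide for small or divided groups. For the 24 genes with a shared name the median was -0.01 and counted as unmoved at -0.30 with the filter at 20 RPKM. It also counted as unmoved, though its sign changed, at 0.28 without overlapping models and at 0.30 with names compared letter for letter. With TMM scaling the medians were -0.64 for all members, -0.64 for 60S, -0.71 for names borne once and -0.079 for ribosome biogenesis. Median centring gave -0.68 for names borne once. Length centring gave -0.86 for all members, -0.85 for 40S, -0.85 for 60S, -1.21 for the stalk, -0.95 for names borne once and -0.98 for the most abundant genes of shared names. The 6 members at least 2-fold lower became 10 with median centring, 12 with TMM scaling and 29 with length centring (7.43%, 7.79% and 8.2% of all eligible genes), and the 1 higher became 0 with TMM scaling and with length centring (12.9% and 11.6% of all eligible genes). S22, NCU08344 and NCU02951 changed sign with length centring, NCU08344 also with the other rescalings, and no other member did. The members' share was 7.68% of the recovered knockout total and 10.8% of that of the wild type, or 12.4% and 17.0% of summed RPKM. The other 121 median, count and share values were counted as unmoved. Among them were names compared letter for letter and the omission of names that genes outside the 80 also bear, both added after the data were seen. Single genes moved more. The log2 ratios of all 80 members were counted as moved with TMM scaling and with median centring, and those of 78 with length centring. For crp-2 the ratio was -1.27 without rescaling, -1.45 with TMM scaling and -1.83 with length centring. The folds and intervals printed for single genes thus hold for unscaled library totals only. No paired analysis was possible because each strain has 1 library. Depth limited no member. With 1 library per strain, variation between cultures is unknown.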

Other observations

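Some ribosomal protein genes also sat next to each other. Among the 80 genes and 12 others with plain ribosomal protein names, 8 pairs were direct neighbours in the table, 7 of them transcribed away from each other across 168 to 319 bp. No share over all neighbouring genes is given here, so these counts only describe the pairs. Neighbours need not have had like values. The S22 and S12 genes (NCU06431 and NCU06432), 253 bp apart, had log2 ratios of 0.47 and -0.72, the widest difference of the 8 pairs. The L7 and S14 genes (NCU07829 and NCU07830), 173 bp apart, had -0.64 and -1.27. S9 and Srp1 (NCU01949 and NCU01948), 237 bp apart, had -0.64 and -0.61, the closest values. The S2 and S30 genes (NCU06047 and NCU06048), which point the same way, had -1.08 and -0.09.

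Ubiquitin is made in part as a fusion with ribosomal proteins. The ubiquitin gene NCU05995 had 1649 RPKM in knockout RNA and 1193 in wild-type RNA, 1.38-fold higher (1.37 to 1.40), while NCU05275, named ubiquitin fusion protein, had 228 and 323 RPKM.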
